A study of Homo sapiens with 19 samples.

Results

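FGFR1, FGFR2, INSR and DDR1 encode receptor tyrosine kinases whose transcripts are known to be spliced into isoforms that differ in ligand binding or signaling. Every row that carried the symbol of one of these 4 genes was taken from the 15 tables of alternative splicing events, whatever its values, which gave 108 of 218798 rows and 4 of 11998 gene symbols. Of the 108 rows, 89 held enough reads for a test. FGFR1 had 46 rows, DDR1 39, FGFR2 22 and INSR 1. By event type, 82 rows were skipped exons (SE), 12 were mutually exclusive exons (MXE), 9 were alternative 5′ splice sites (A5SS) and 5 were alternative 3′ splice sites (A3SS), and none was a retained intron.

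The samples were HMLE/Twist-ER cells, a TERT-immortalized human mammary epithelial line that carries the transcription factor Twist fused to the estrogen receptor. Cells without tamoxifen represented the epithelial state (EPI), and cells kept in 20 nM tamoxifen until they looked mesenchymal represented the mesenchymal state (MES). All RNA-seq groups stably expressed a lentiviral shRNA, either a non-specific control or one against AKAP8, an RNA-binding protein. Poly(A) RNA-seq was available for 3 EPI control, 3 EPI shAKAP8, 3 MES control and 2 MES shAKAP8 libraries, and AKAP8 eCLIP, which maps the RNA that is crosslinked to a protein, for 2 replicates in each state. The labels do not say which AKAP8 shRNA the RNA-seq cells carried. The questions were how exon use in the 4 genes differs between the states (EMT, MES control against EPI control) and after AKAP8 knockdown in each state.

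In a receptor tyrosine kinase, ligand binding outside the cell brings receptors together and switches on the kinase inside it. In FGFR1 and FGFR2, the third immunoglobulin-like domain ends with sequence from either exon IIIb or exon IIIc, and this choice sets which fibroblast growth factors bind. The IIIb form of FGFR2 is the form known from epithelia, and IIIc the form known from mesenchymal cells. The first immunoglobulin-like domain is encoded by a separate exon that is present in alpha and absent from beta isoforms. INSR, the insulin receptor, is made without (A form) or with (B form) exon 11, and DDR1, a receptor for collagen, is made with or without a short coding exon next to its transmembrane part (b and a forms).

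Exons of FGFR2, INSR and DDR1 at which these isoforms part are shown first, because the values below count the reads that join them to their neighbors. Each line gives the RNA strand as DNA letters, 5′ to 3′, from the GRCh37 genome, with the exon in capitals and 20 bases of intron on either side in lower case.
FGFR2 exon IIIb: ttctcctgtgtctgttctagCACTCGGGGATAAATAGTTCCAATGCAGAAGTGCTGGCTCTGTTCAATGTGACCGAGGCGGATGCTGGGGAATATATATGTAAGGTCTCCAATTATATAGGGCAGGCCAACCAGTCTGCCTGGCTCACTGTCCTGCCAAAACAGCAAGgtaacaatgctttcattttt
INSR exon 11: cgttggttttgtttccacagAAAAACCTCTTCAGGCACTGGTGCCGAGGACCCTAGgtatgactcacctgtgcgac
DDR1 111-nt exon: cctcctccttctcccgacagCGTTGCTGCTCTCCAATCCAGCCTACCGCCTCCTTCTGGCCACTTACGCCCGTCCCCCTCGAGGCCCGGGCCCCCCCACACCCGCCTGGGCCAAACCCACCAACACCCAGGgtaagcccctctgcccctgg
Exon IIIb of FGFR2 (148 nt) lies at chr10:123278196-123278343 on the minus strand, and exon IIIc (145 nt) follows it. INSR exon 11 (36 nt) lies at chr19:7150508-7150543 on the minus strand, and the DDR1 exon (111 nt) at chr6:30863181-30863291 on the plus strand. In the GENCODE annotation, exon IIIb was coding in 6 of the 8 transcripts that hold it and exon IIIc in 12 of 17. The INSR exon was coding in the single transcript that holds it and the DDR1 exon in all 5. The lengths of the INSR and DDR1 exons are multiples of 3, whereas both FGFR2 exons leave a remainder of 1. The 1218 nt of intron between IIIb and IIIc hold 2 copies of TGCATG, the letters bound by RBFOX splicing factors, with the first base 449 and 992 nt after exon IIIb. They are shown in capitals with the intron around them.
first copy, chr10:123277715-123277774: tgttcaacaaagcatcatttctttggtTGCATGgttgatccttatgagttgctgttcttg
second copy, chr10:123277172-123277231: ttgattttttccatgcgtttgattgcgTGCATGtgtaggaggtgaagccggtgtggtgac
The same intron holds 1 copy each of TGGTGG and GGTGGG, G- and T-rich letters of the kind that ESRP proteins bind, which overlap each other 846 and 847 nt after exon IIIb, and no copy of CTCTCT, letters bound by PTBP1. Only the RNA strand was searched. In the 250 nt before exon IIIc, TGCATG occurred once, as it did in 6.93% of the same windows before the 39005 skipped exons tested in the EMT comparison. TGCATG also occurred once in the 250 nt after INSR exon 11, as in 7.27% of the windows after those exons. In the 250 nt before exon IIIb, TGGTGG occurred 2 times and GGTGGG once, where 10.8% and 13.1% of windows held them. CTCTCT occurred once in the 250 nt after exon IIIc, with its first base 17 nt after the exon, where 10.5% of windows held it. Such matches describe the letters only.

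The libraries held 31258177 to 40852217 SE junction reads each. The summed scaled reads of 9 measured epithelial markers were 92873 to 140632 in EPI control and 7992 to 23397 in MES control, and those of 12 measured mesenchymal markers 690896 to 1573170 and 2925560 to 5324360. Most of the mesenchymal sum came from FN1, with means of 1100820 scaled reads in EPI control and 3897050 in MES control. No measured marker of either list was at 0 in all libraries of a group. A marker had a value only where an SE event of it was found in all comparisons, the knockdown of each state included. Markers without reads in a state were thus likely left out, and reads of the measured ones in both states were to be expected from this filter. In bulk RNA, fewer cells of a type and less RNA per cell cannot be told apart. AKAP8, the targeted gene, had 243.8 to 309.9 scaled reads in EPI control and 98.8 to 124.8 in EPI shAKAP8, 195.8 to 382.3 in MES control and 108.3 to 121.9 in MES shAKAP8. It was lower in every knockdown library than in every control of its state, with a log2 difference of -1.20 in both states, and passed the test in MES (adjusted p = 0.0322, limma) but not in EPI (adjusted p = 0.0664). The EPI controls served both the EPI knockdown and the EMT comparison, and 2 MES controls served both the MES knockdown and the EMT comparison.

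FGFR2 showed the largest difference of exon use among the events called in the 4 genes. EPI controls used exon IIIb almost alone, and MES controls used both exons. In the MXE row of the pair, where a read is counted for the exon it joins to a neighbor, the EPI controls had 106, 88 and 81 reads for IIIb and 0, 0 and 1 for IIIc. The MES controls had 5, 9 and 9 reads for IIIb and 8, 14 and 8 for IIIc. Percent spliced in (PSI, here the share of IIIb after division by the effective lengths of the forms) was therefore 100%, 100% and 98.8% in EPI control and 38.5%, 39.1% and 52.9% in MES control. The groups did not overlap. Mean PSI was 99.6% ± 0.70 in EPI control and 43.5% ± 8.17 in MES control (SD, n = 3 each), so that IIIb use fell by 56.1 points in EMT (FDR = 3.5e-10, quasi-binomial test with limma-moderated dispersion). The exact 95% intervals of the IIIb share of reads ran from 13.9% to 77.0% over the MES controls and from 93.4% to 100% over the EPI controls, for counting error only.

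Both parts of the pair moved. Summed over 3 libraries, IIIb reads went from 275 to 23, a level 11.6-fold lower after scaling (exact 95% counting interval 7.58 to 18.6). IIIc reads went from 1 to 30, a ratio of 30.9 with an interval from 5.14 to 1261, since a single read stood in EPI. The same exons were also counted as separate SE events, which share reads with the pair. PSI of IIIc was 0%, 0% and 1.18% in EPI control and 50%, 36.4% and 66.7% in MES control, a rise of 50.6 points (FDR = 2.1e-07). PSI of IIIb was 100% in each EPI control and 27.3%, 17.6% and 80% in MES control, and fell by 58.4 points (FDR = 8.7e-05). The third MES control stood apart here on 9 reads, 8 of them for IIIb.

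**Figure D1:**
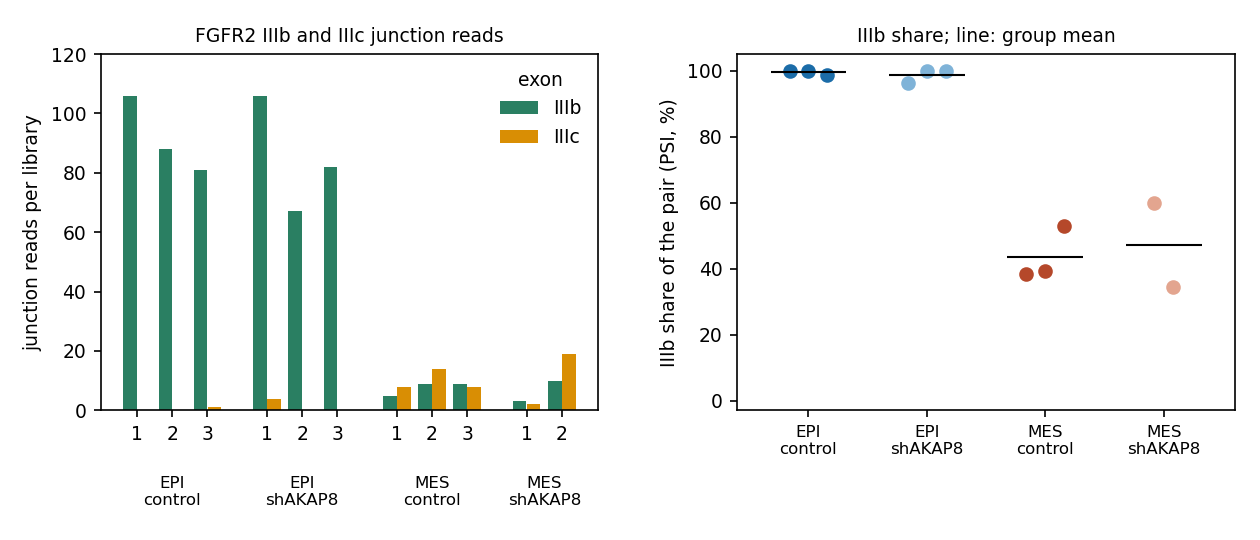
Left, junction reads of FGFR2 exons IIIb and IIIc in each of the 11 libraries, in the order listed for each group, and right, the IIIb share of the pair in percent, with 1 point per library and a line at the group mean. EPI libraries lie between 96.4% and 100%, and MES libraries between 34.5% and 60%, on 5 to 29 reads each.

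The FGFR2 pair did not pass the test after AKAP8 knockdown in EPI. EPI shAKAP8 libraries had 106, 67 and 82 reads for IIIb and 4, 0 and 0 for IIIc, or 96.4%, 100% and 100% IIIb. The first of these lay below all EPI controls and the other 2 at 100%, and the difference from the EPI controls was -0.81 points (FDR = 0.88). In MES shAKAP8 the reads were 3 and 10 for IIIb and 2 and 19 for IIIc, or 60% and 34.5% IIIb. These values bracket the MES controls, but a mean of 17.5 reads per library was under the minimum of 20 and no test was made. None of the 7 FGFR2 rows of the MES knockdown tables reached the minimum.

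Over the 4 genes, 38 of 40 EMT rows could be tested and 4 passed FDR under 0.05 with a difference of at least 0.1 PSI, against 1.6% of all 67451 events tested. The 4 are the FGFR2 pair, its IIIb and IIIc events and a DDR1 event described below, so 3 of them count the same pair of exons. The median absolute difference was 2.35 points over the 38 rows and 0.934 points over all events. In the EPI knockdown, none of the 23 tested rows passed, where 0.0492% of 65008 events did. With an unadjusted p under 0.05 and the same size, 1 row did, the 173-nt leader exon of DDR1 beside a 50-nt upstream exon (-11.9 points), and with limma on the logit of PSI none did. In the MES knockdown, none of the 28 tested rows passed, where 0.054% of 59288 events did, and the count was 0 without adjustment and with limma too. The interaction test on the 11 libraries asked whether the knockdown effect differed between MES and EPI, and none of the 18 SE and MXE rows of the 4 genes present in all 3 comparisons passed, where 0.00855% of 35083 events did. None of the 18 had an unadjusted p under 0.05.

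Total junction reads of the genes moved in opposite directions in EMT. These gene levels sum the reads of the SE events that all comparisons share and were scaled for depth, so they allow no comparison between genes. FGFR1 had 73.0, 50.2 and 96.2 scaled reads in EPI control and 1842, 1733 and 1472 in MES control. That is a rise of 4.55 on the log2 scale (SE 0.25, adjusted p = 1.2e-07, limma), or 23.4-fold. FGFR2 had 218.1, 186.0 and 176.8 in EPI control and 10.8, 41.8 and 32.7 in MES control, a fall by 2.91 (SE 0.44, adjusted p = 3.9e-04). DDR1 had 2130, 2985 and 2390 in EPI control and 485.2, 634.4 and 714.6 in MES control, a fall by 2.04 (SE 0.21, adjusted p = 1.8e-05). All 3 genes were called in this comparison, where 12.5% of 9014 genes were. INSR had no SE event in all 3 comparisons and no gene level.

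After AKAP8 knockdown, FGFR1 was higher in EPI. Its EPI shAKAP8 libraries had 160.9, 259.5 and 186.2 scaled reads, all above the 3 EPI controls, a difference of 1.47 on the log2 scale (SE 0.25, adjusted p = 0.0273, limma), or 2.78-fold. Only 0.189% of genes were called in the EPI knockdown. The call was lost without the first (adjusted p = 0.133) or the second EPI control (0.125), without the first (0.0524) or the third EPI shAKAP8 library (0.0568), with 1 SE event per gene (0.0505) and with the 6 EPI libraries alone (0.226), with differences from 1.14 to 1.62. In MES shAKAP8, FGFR1 had 2093 and 1683 scaled reads, a difference of 0.16 (adjusted p = 0.772, 95% interval -0.43 to 0.76). The MES and EPI effects on FGFR1 differed by -1.31 (SE 0.37) in a term added after seeing the data, which did not pass over all genes (adjusted p = 0.583, limma), where 0.0111% of genes did. FGFR2 differed by 0.13 in EPI (95% interval -0.82 to 1.08) and 0.58 in MES (-0.48 to 1.65), and DDR1 by 0.21 (-0.25 to 0.67) and -0.02 (-0.53 to 0.49). None of these passed, where 2.27% of genes were called in the MES knockdown.

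**Figure D2:**
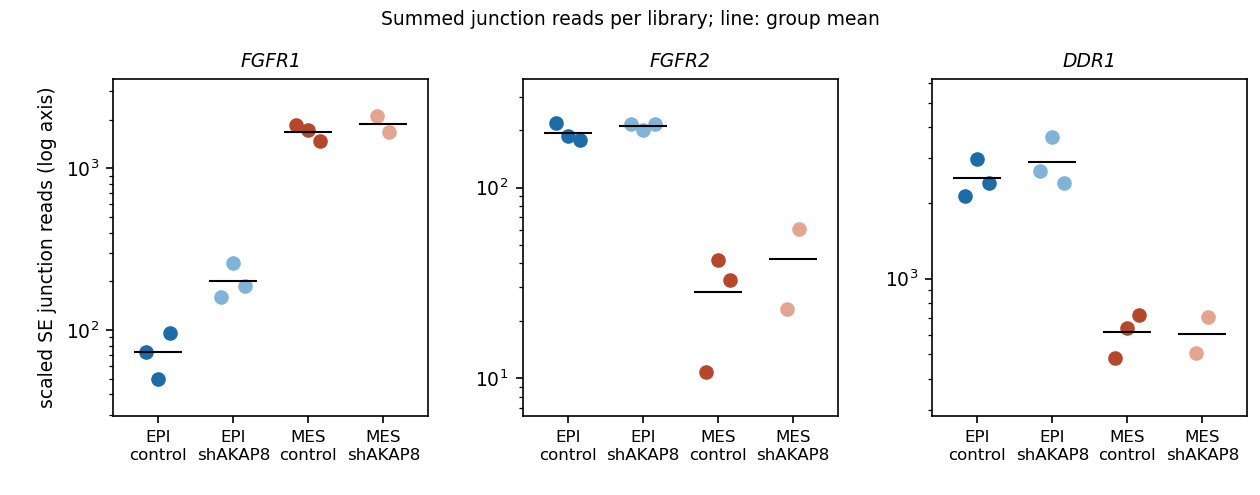
Summed and scaled SE junction reads of FGFR1, FGFR2 and DDR1 on log axes, with 1 point per library and a line at the group mean. FGFR1 was higher in MES than in EPI libraries, whereas FGFR2 and DDR1 were lower, and the FGFR1 values of EPI shAKAP8 (160.9 to 259.5) lie above those of EPI control (50.2 to 96.2).

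FGFR1 holds an exon that corresponds in its place to FGFR2 IIIc. This exon (chr8:38279315-38279459) has 145 nt and lies between exons of 191 and 203 nt, the lengths found around the FGFR2 pair. It was skipped by 1, 0 and 1 reads in EPI control, beside 4, 11 and 7 inclusion reads, or 66.7%, 100% and 77.8% PSI. No skipping read was found in MES control beside 921, 764 and 550 inclusion reads. The difference of 18.5 points did not pass (FDR = 0.078), and the groups overlapped at 100%. EPI shAKAP8 libraries stood at 100%, 100% and 93.9%, on under 20 reads per library on average and without a test. No segment in the rows used corresponded to exon IIIb of FGFR1, so no IIIb share is given for this gene.

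The exon of the first immunoglobulin-like domain has 267 nt in both receptors. In FGFR1 (chr8:38287200-38287466), in the row with the most reads, PSI was 33.3%, 100% and 41.2% in EPI control and 21.8%, 24.8% and 21.4% in MES control. The groups were apart, but the EPI values rest on 12, 9 and 24 reads, and the difference of -35.5 points did not pass (FDR = 0.47) and was -14.6 points without the second EPI control. The EPI shAKAP8 libraries had 44.8%, 33.3% and 27.6%. The MES shAKAP8 libraries had 31.3% and 31.5%, above all 3 MES controls, a difference of 8.09 points from the 2 controls of that comparison that did not pass (FDR = 0.76). In this row the exon was skipped more often than included in MES. In 2 further rows, which set the exon beside a 68-nt or a 144-nt neighbor, it was mostly included. PSI in the MES controls was 97.0% to 100% with the 68-nt neighbor, and 100%, 86.5% and 100% with the 144-nt neighbor. In FGFR2 (chr10:123324952-123325218) the 267-nt exon had 61.2%, 75.4% and 66.3% in EPI control and 100%, 75% and 87.5% in MES control, on 4, 21 and 15 reads in MES. The difference of 19.8 points had an FDR of 0.67, and the groups overlapped by a small margin, 75.4% against 75%.

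A further FGFR1 exon of 144 nt (chr8:38286765-38286908), coding in both transcripts that hold it, was rare in MES. PSI was 0%, 1.08% and 0.55% in MES control and 1.04% and 1.33% in MES shAKAP8. In EPI control it was 0%, 100% and 9.09%, where the middle value rests on 2 reads (FDR = 0.15). A MXE row present in the MES knockdown tables alone set a 90-nt exon (chr8:38285864-38285953) against a 179-nt exon (chr8:38314874-38315052). PSI, here the share of the 179-nt exon, was 47.4% and 45.0% in MES control and 49.1% and 61.1% in MES shAKAP8, without passing the test (FDR = 0.999). As separate SE events both exons were almost always included. Mean PSI in MES control and MES shAKAP8 was 100% and 99.3% for the 90-nt exon and 100% and 99.7% for the 179-nt exon. The share is therefore not read as a choice between them. With limma on the logit of PSI, the 145-nt and 144-nt exons passed in EMT (adjusted p = 1.7e-05 and 0.0088). That test adds 0.5 reads to each form and weights all libraries alike, so its values also depend on depth. FGFR1 had far fewer reads in EPI than in MES, and whether depth alone gives these passes was not tested. The difference of the 144-nt exon fell to -4.00 points without the second EPI control.

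Other FGFR2 segments did not pass any test either. The 78-nt exon (chr10:123324016-123324093) had 97.6%, 95.3% and 86.4% PSI in EPI control and 83.3%, 91.2% and 87.6% in EPI shAKAP8 (FDR = 0.71). Its MES control values were 0%, 100% and 100%, on 1, 5 and 6 reads, and both MES shAKAP8 libraries had 100%. A second MXE row set the 203-nt exon (chr10:123274631-123274833) against the 191-nt exon (chr10:123279493-123279683). Both flank the IIIb and IIIc pair and are the neighbors to which its reads join. Their share is therefore not read as a choice between them. The share of the 191-nt exon was 58.1%, 72.2% and 72.9% in EPI control and 58.2%, 63.6% and 60.3% in EPI shAKAP8. It was 16.7%, 92.3% and 42.9% in MES control, on 6, 13 and 7 reads (FDR = 0.90 and 0.92 for the EPI knockdown and EMT).

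**Figure D3:**
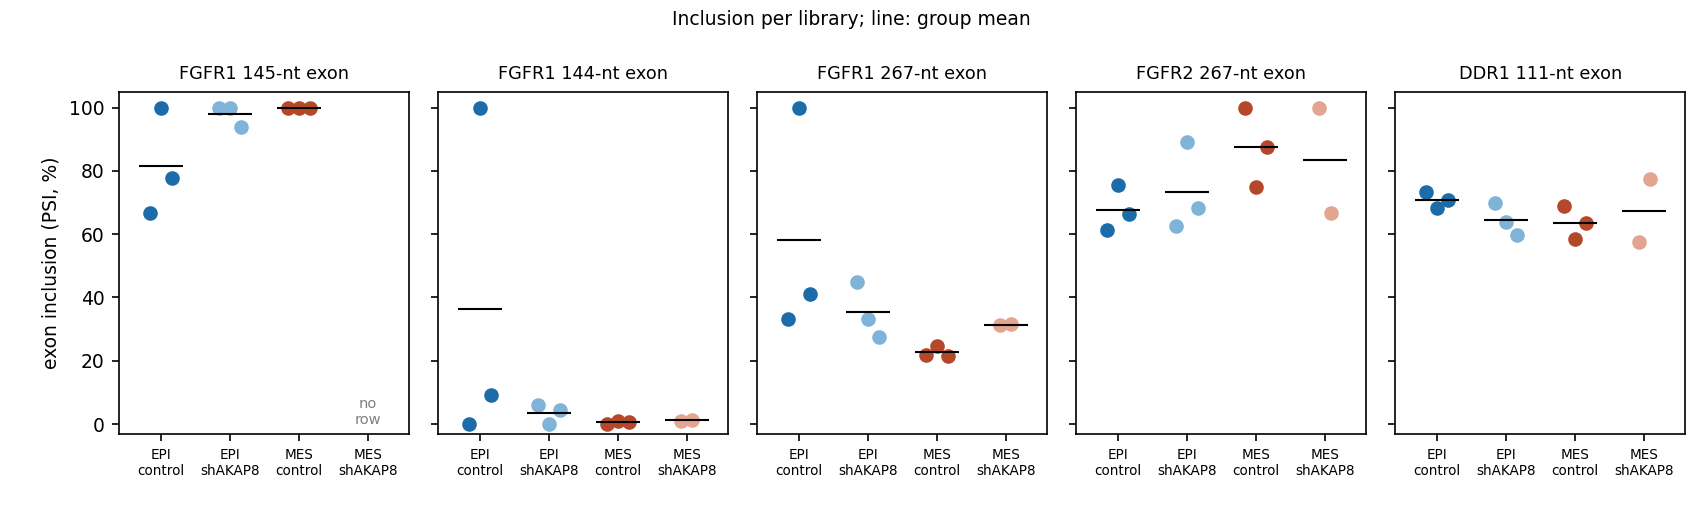
Inclusion in percent of 5 coding exons of FGFR1, FGFR2 and DDR1 in each library, with a line at the group mean and "no row" where the tables used hold no value. The second EPI control is at 100% for all 3 FGFR1 exons, on 2 to 11 reads, while MES control values of the FGFR1 267-nt exon lie between 21.4% and 24.8%.

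No coding exon of DDR1 passed a test. The 111-nt exon, which makes the b form, had 73.3%, 68.1% and 70.7% PSI in EPI control on 646 to 1008 reads. It had 69.8%, 63.8% and 59.8% in EPI shAKAP8, 68.8%, 58.5% and 63.5% in MES control and 57.4% and 77.5% in MES shAKAP8. The EMT difference was -7.12 points (FDR = 0.67) and the EPI knockdown difference -6.29 points (FDR = 0.71), and in both comparisons the groups overlapped. In MES shAKAP8 the 2 libraries stood on either side of the MES controls (3.78 points, FDR = 0.76).

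The called DDR1 event lies in the untranslated leader. A 56-nt exon (chr6:30853402-30853457) is untranslated or non-coding in all 14 transcripts that hold it, and the tables set it beside 4 different upstream exons. With the 50-nt exon at chr6:30850711-30850760 upstream, PSI was 34.0%, 37.1% and 35.2% in EPI control and 74.3%, 79.9% and 86.1% in MES control. The groups were apart, with means of 35.4% ± 1.55 and 80.1% ± 5.92 (SD, n = 3 each), a rise of 44.7 points (FDR = 7.2e-04). The EPI shAKAP8 libraries, at 35.5%, 32.6% and 38.9%, differed from EPI control by 0.21 points (FDR = 0.98), and the MES knockdown tables used had no such row.

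With the other 3 upstream exons the same 56-nt exon moved little. After the 173-nt exon (chr6:30852315-30852487), the row with the most reads, PSI was 69.2%, 81.8% and 64.9% in EPI control and 87.5%, 55.4% and 66.6% in MES control (-2.14 points, FDR = 0.74). It was 75.8%, 70.2% and 73.4% in EPI shAKAP8 and 73.0% and 65.1% in MES shAKAP8. After the 62-nt exon the means were 95.5% and 98.7% in EPI and MES control (FDR = 0.68), and after the 264-nt exon 87.6% and 88.9% (FDR = 0.96). These rows are not independent, because all 4 count the junction from the 56-nt exon to the next exon of 127 nt. The EPI controls had 65, 111 and 82 inclusion reads with the 50-nt exon and 65, 107 and 78 with the 62-nt exon. What set the called row apart were its skipping reads, which join the 50-nt exon to the 127-nt exon. They numbered 81, 121 and 97 in EPI control and 6, 6 and 3 in MES control, while inclusion reads were 27, 37 and 29 in MES control. Use of the 50-nt exon and inclusion of the 56-nt exon cannot be told apart in such a row. The 173-nt leader exon itself, with the 62-nt exon upstream, had 100% PSI in each EPI control and 100%, 84.6% and 100% in MES control (FDR = 0.66).

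**Figure D4:**
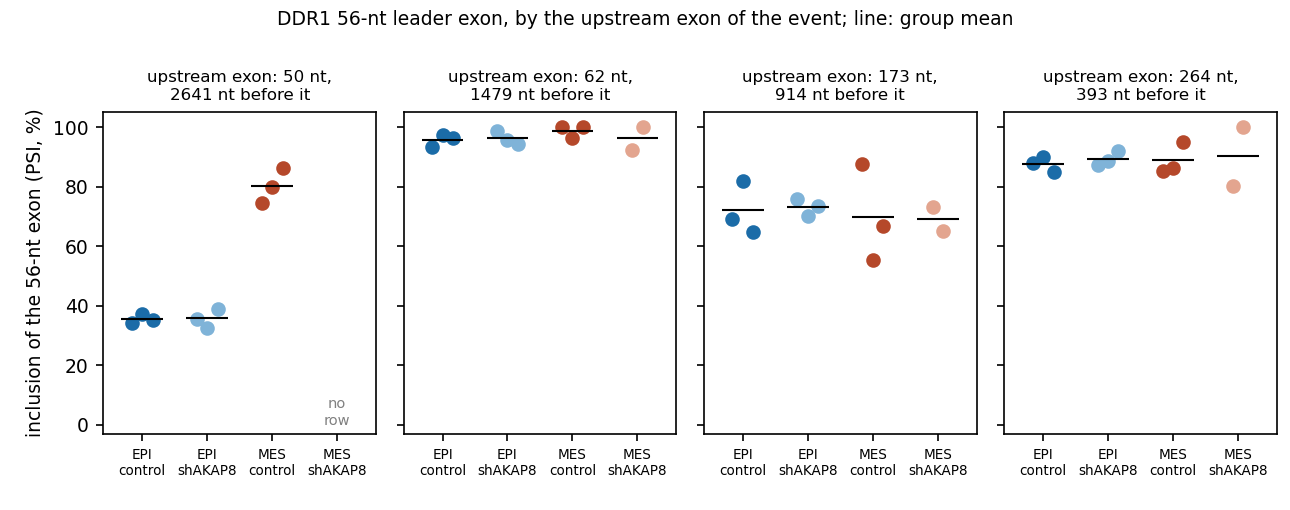
Inclusion in percent of the 56-nt leader exon of DDR1 in each library, in 4 panels by the upstream exon of the event, with a line at the group mean. With the 50-nt upstream exon, EPI libraries lie between 32.6% and 38.9% and MES controls between 74.3% and 86.1%, and in the other panels the groups overlap.

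INSR was covered by 1 row, exon 11 in the MES knockdown SE table, at 5.25 reads per library on average. The MES controls had 1 and 5 inclusion reads and no skipping read. The MES shAKAP8 libraries had 0 and 2 inclusion reads and 3 and 10 skipping reads, or 0% and 12.9% PSI. The groups did not overlap, but the row was under the minimum and was not tested. The exact 95% intervals of the inclusion share of reads were 2.5% to 100% and 47.8% to 100% in the controls and 0% to 70.8% and 2.09% to 48.4% in the knockdown libraries, for counting error only. With so few reads, no difference between the A and B forms of this receptor is stated.

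The remaining 18 SE and MXE segments that could be tested had group means that differed by at most 0.0927 to 2.56 points, depending on the segment. In MES control, 13 of them had PSI above 95% and 3 below 5%. None of the A5SS and A3SS rows passed in any comparison. The 5′ splice sites with an optional 6 nt are given here although the rule for full values left them out, and were chosen after their values were seen. FGFR1 and FGFR2 both have one at the end of the 203-nt exon. In FGFR2 the optional bases are GTAACA, in capitals between 24 bases of exon and 20 of intron.
FGFR2 optional bases, chr10:123274611-123274660, minus strand: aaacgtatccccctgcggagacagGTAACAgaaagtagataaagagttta
The share with the 6 nt was 81.3%, 61.7% and 63.4% in EPI control and 74.1%, 66.1% and 76.6% in EPI shAKAP8, with 4 to 5 reads per library in MES control. In FGFR1 it was 87.0%, 100% and 76.0% in EPI control and 83.1%, 89.4% and 85.4% in MES control on 286 to 451 reads, and 86.1% and 85.0% in MES shAKAP8. At another optional 6 nt of FGFR1, at the end of the 90-nt exon, the share was 42.5%, 42.7% and 36.1% in MES control and 34.5% and 31.4% in MES shAKAP8. The groups were apart, and the difference of -9.67 points did not pass the quasi-binomial test with limma-moderated dispersion (FDR = 0.83).

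AKAP8 eCLIP peaks lay in 2 of the 4 genes, each in a single state. The lists held 24637 peaks in EPI and 30390 in MES, merged by the authors over 2 replicates, so no error can be given. DDR1 held 20 peaks in EPI, which overlap one another and cover 637 nt in 7 stretches, and none in MES. FGFR1 held 4 peaks in MES and none in EPI, and FGFR2 and INSR held none in either state. Each gene held peaks in the state with its higher RNA level given above, DDR1 in EPI and FGFR1 in MES, and the part of RNA abundance in the peaks was not tested. All DDR1 peaks lay in the leader region. The strongest, at chr6:30851606-30851678, had a log2 of IP over input of 5.86 and lay within an exon of a transcript. The nearest to the 56-nt exon, at chr6:30853635-30853704, was intronic, 178 nt downstream, with a log2 of 3.97. In FGFR1 the only peak near an alternative exon was intronic, at chr8:38278179-38278255, 1060 nt from the 145-nt exon with a log2 of 1.501, and the other 3 peaks had values from 3.15 to 3.55 and lay at the 5′ end of the gene. The lists were used whole, whereas the paper's high-confidence peaks met a stricter cutoff. The FGFR1 peak at 1.501 and the weakest DDR1 peak, at 1.95, do not reach that cutoff.

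**Figure D5:**
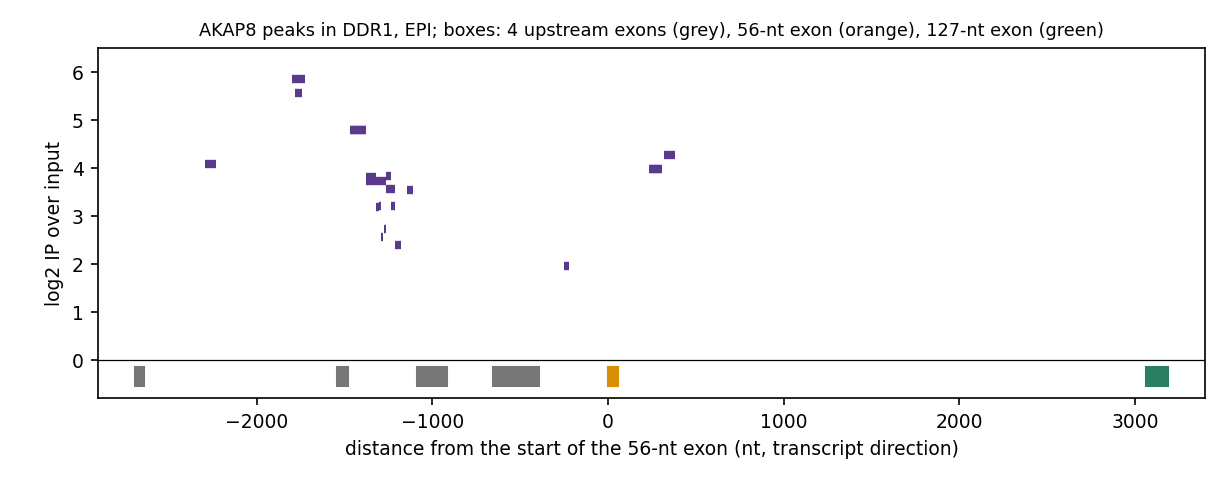
AKAP8 eCLIP peaks in DDR1 in EPI, as bars at their log2 of IP over input against the distance in nt from the start of the 56-nt exon, with exons as boxes under the axis. The 20 peaks range from 1.95 to 5.86, and most lie between the 50-nt and the 173-nt upstream exons.

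Of 54 other receptor tyrosine kinases listed, 19 had a value, and 5 rose and 2 fell in EMT, where 12.5% of all genes tested were called. The rises included DDR2, the other collagen receptor of the DDR family (5.85 on the log2 scale, adjusted p = 1.8e-07, limma), EPHB6, an ephrin receptor without kinase activity (4.69, 1.9e-05), and PDGFRB, the receptor for platelet-derived growth factor B (4.08, 5.1e-06). FGFR3, a sister of FGFR1 and FGFR2, fell by 3.93 (adjusted p = 1.5e-05) and MST1R, the receptor for macrophage-stimulating protein, by 3.34 (9.7e-05). DDR1 and DDR2 thus moved in opposite directions, as did FGFR1 against FGFR2 and FGFR3. The median over the list was -0.05, against 0.01 over all genes. In the EPI knockdown none of the 19 passed (4 with an unadjusted p under 0.05), and in the MES knockdown ROS1 fell by 1.97 (adjusted p = 0.0206).

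Of 25 ligands, ligand-binding proteins and collagens, 8 had a value, and 6 rose and none fell in EMT, with a median of 3.12. Over all 9014 genes, 485 rose and 645 fell. The largest rises were in collagens, the ligands of the DDR receptors, namely COL6A1 (8.05, adjusted p = 2.9e-09), COL1A1 (7.02, 2.9e-09), COL6A3 (4.21, 5.4e-05), COL5A2 (3.90, 2.3e-08) and COL4A1 (2.34, 2.8e-05). Of 42 adaptors and inhibitors of receptor signaling, 30 had a value, and 1 rose and 4 fell, a share near the 12.5% called over all genes. FLRT3, a membrane partner of FGF receptors, fell by 2.78 (adjusted p = 9.5e-05), GRB14, an adaptor that inhibits INSR, by 2.50 (9.7e-05), SPRY4, an inhibitor of FGF signaling, by 2.001 (8.3e-04) and GAB1, a docking protein, by 1.002 (0.0169). GRB10, another adaptor that binds INSR, rose by 2.56 (3.0e-04). No gene of these lists passed in either knockdown, where 2 and 2 in EPI, and 4 and 5 in MES, had an unadjusted p under 0.05.

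Among 32 splicing regulators, 27 had a value, and 1 rose and 3 fell in EMT, a share near the 12.5% called over all genes. ESRP1 and ESRP2, epithelial splicing factors known to favor FGFR2 exon IIIb, fell by 4.05 and 3.45 (adjusted p = 3.4e-07 and 1.8e-07, limma). Their EPI and MES controls did not overlap, with 3158 to 3658 against 117.6 to 282.5 scaled reads for ESRP1 and 657.6 to 879.6 against 67.6 to 75.9 for ESRP2. RBM47 fell by 4.27 (adjusted p = 0.0013) and QKI, which favors many mesenchymal exons, rose by 1.06 (8.0e-04). HNRNPM (0.70, adjusted p = 0.0079) did not reach a difference of 1, and RBFOX2 (0.36, 0.0673), PTBP1 (-0.14, 0.538) and AKAP8 (0.00, 0.998) did not pass. In the knockdowns, ESRP1 differed by -0.05 in EPI and -0.95 in MES (adjusted p = 0.989 and 0.0808) and ESRP2 by 0.09 and -0.22 (0.964 and 0.596). Among the regulators AKAP8 itself was the only one called in the MES knockdown, and none was called in EPI (2 with an unadjusted p under 0.05).

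The marker lists separated the states. All 9 measured of 20 epithelial markers fell, among them RAB25, a GTPase of vesicle transport (-5.08), CDH1, the adhesion protein E-cadherin (-4.34), OCLN of tight junctions (-3.58), and the ESRP genes given above, and all 12 measured of 20 mesenchymal markers rose, led by FBLN5 (8.56), COL6A1 (8.05), CDH11 (7.34), COL1A1 (7.02) and POSTN (6.80). COL1A1, COL6A1, PDGFRB, ESRP1 and ESRP2 each stand in more than 1 list. In the MES knockdown RAB25 fell by 1.41 (adjusted p = 0.0315, limma), and no other marker passed in a knockdown. Over the 11 libraries, the genes whose log2 levels were most like DDR1 were JUP, CDH3 and SPINT1 (Pearson r 0.996, 0.994 and 0.993). Those most like FGFR2 were RGS14, SLC37A2 and BAIAP2L1 (0.985, 0.983 and 0.981), and those most like FGFR1 were CYBRD1, UGDH and EPHB6 (0.986, 0.983 and 0.982). These values describe 2 states and share libraries and scaling, and no test was made.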

How the data were processed

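Poly(A) RNA-seq of 11 HMLE/Twist-ER libraries in 4 groups and AKAP8 eCLIP in 2 states were used. The authors aligned reads to GRCh37 with STAR and counted reads per event with rMATS. The 15 deposited tables (5 event types, 3 comparisons) hold inclusion and skipping junction read counts of each group as a comma-separated field, unnamed by library, and these counts are not normalized. Effective lengths came from the same tables. The 30 columns of per-sample PSI and the columns of the authors' p-values, FDR and differences were not used. The log2 fold changes and q-values of genes that the authors deposited (featureCounts, DESeq2) were left out as well. The eCLIP lists give, as the authors deposited them, a log2 of IP over input and a −log10 adjusted p of each peak merged over 2 replicates. eCLIP depth is not given in these lists.

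PSI was computed per library from reads and lengths. Events with a mean of at least 20 junction reads per library were tested with a quasi-binomial likelihood-ratio F test in R 4.3.3. Its dispersion was moderated with limma 3.58.1 (robust trend on reads of the rarer form, floor 1, trend value under 10 such reads). P-values were adjusted (Benjamini-Hochberg) within type and comparison over all events, and calls needed FDR under 0.05 and a difference of 0.1 PSI. The interaction used all 11 libraries. Gene levels summed reads of the 33107 SE events found in all comparisons (9209 genes) and were scaled by the median of ratios to the libraries' geometric mean. For the 9014 genes that reached 10 scaled reads in 2 or more libraries, limma with a mean trend was fitted to log2(scaled reads + 1), with all groups in 1 fit. Calls needed adjusted p under 0.05 and a log2 difference over 1. Reads that support several SE events count more than once. The tests were checked on simulated data. The labels call the samples replicates, and the study describes them as biological.

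Rows sharing a variable segment were taken as 1 segment, shown by the row with most reads. Full values were given for the FGFR2 pair and for SE and MXE segments that were tested and either called or differing by 5 points between groups. Other lists are given by counts, with the 5 largest called EMT changes. Members, lists and tests were chosen with earlier results of these data known. Positions use GENCODE version 44 lifted to GRCh37, newer than the authors' annotation. Alternatives were other read filters, dispersion trends, limma on logit PSI, other thresholds, pseudocounts and scalings, and leaving out each library. The sequence of 1 exon is not reported here.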

Additional observations from a re-analysis of the deposited data

How the results depend on the processing

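In EMT, the number of called exon events went from 4 to 2 with a minimum of 40 reads, because the separate IIIb and IIIc events were then not tested. It went to 7 with limma on the logit of PSI, where 3 FGFR1 rows joined, and was 4 with each library left out. The logit values of these FGFR1 rows also depend on read depth, as stated above. The calls of 3 genes in EMT held under all alternatives, and the counts of 0 in the MES knockdown, in both exon knockdown comparisons and in the interaction held too. In the EPI knockdown the number of called genes was 1, and it was 0 with 1 SE event per gene, 0 with the libraries of the comparison alone, and 0 to 1 with each library left out. The cause was not tested. The number of AKAP8 peaks went from 24 to 19 at a log2 of at least 3.

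Differences that no test called changed sign when 1 library was left out. In EMT the FGFR2 78-nt exon ranged from -43.1 to 6.91 points and the DDR1 56-nt exon after the 173-nt exon from -11.0 to 5.07, also 2.78. In the EPI knockdown the ranges were -2.15 to 11.1 points for the FGFR2 267-nt exon, -1.41 to 0.41 for the FGFR2 pair, -2.38 to 6.08 for the DDR1 56-nt exon after the 173-nt exon (-0.21 and -0.15 among them) and -1.41 to 1.74 after the 50-nt exon (-0.49 among them). In the MES knockdown they were -18.4 to 13.6 for the DDR1 56-nt exon (also 1.53) and -6.28 to 13.9 for the 111-nt exon (also -1.36), and on the log2 scale -0.10 to 1.27 for FGFR2 and -0.25 to 0.22 for the DDR1 level (also 0.020 and 0.11), which was 0.061 with 1 SE event per gene. With 1 MES shAKAP8 library, that sample was assumed to vary like the others. No paired analysis was possible because the tables list the libraries of a group in 1 field without naming or numbering them. The gene interaction, and leaving out libraries in both interactions, were added after seeing the data. Depth limits the FGFR2 and INSR values in MES and the FGFR1 values in EPI, which rest on few reads.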
